A study of Mus musculus with 12 samples.

Results

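Glycolysis and the response to low oxygen are described here through 32 genes of mouse embryonic stem cells, chosen by symbol. They comprise glucose uptake, every step from glucose to lactate, lactate export, the oxygen sensors and a set of known targets of the hypoxia-inducible factor (HIF). The 32 symbols matched 33 of the 52661 Ensembl IDs in the deposited count table, because Aldoa is listed under 2 IDs. All 33 passed the filter on low counts, which kept 21053 IDs. The genes were chosen with earlier results of these data known.

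The 12 RNA-seq libraries come from CGR8, an established mouse line of embryonic stem cells, kept with serum and leukemia inhibitory factor (LIF). All 4 groups carry the stably transfected ppy-cagg-ires-puro vector, so the control is not untransfected: its vector is empty. The netrin-1 WT group expresses a transgene for netrin-1, a secreted guidance and survival cue. The netrin-1 unc5B MUT and netrin-1 neo1 MUT groups express netrin-1 with a point mutation affecting interaction with the receptor Unc5b or neogenin. Each group has 3 libraries, numbered 1 to 3 in the titles. No label says whether these are separate cultures or clones, and the spread behind each p-value may thus be technical. In bulk RNA, fewer cells of a type and less RNA per cell cannot be told apart.

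Glycolysis splits glucose into pyruvate in the cytosol, and lactate dehydrogenase then reduces pyruvate to lactate, which monocarboxylate transporters carry out of the cell. Pluripotent stem cells are known for running this route fast even with oxygen present. When oxygen falls, the prolyl hydroxylases of the Egln family stop marking the HIF-alpha subunit for destruction. HIF then binds DNA at a short core motif, ACGTG or GCGTG, and raises transcription of most glycolytic enzymes and of genes such as Bnip3, Vegfa, Pdk1 and Ankrd37.

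The libraries held 22256195 to 59735737 estimated counts, and the 4 libraries numbered 3 were the smallest, at 22256195 to 24736421. The 33 IDs took between 1.04% (netrin-1 WT replicate 3) and 1.93% (netrin-1 WT replicate 2) of the counts. Ntn1, the transgene's gene, was at 15.4, 9.09 and 0.782 CPM (counts scaled to the same library size) in control libraries 1, 2 and 3. It was at 288, 223 and 76.9 CPM in netrin-1 WT, 322, 204 and 34.9 CPM in netrin-1 unc5B MUT, and 219, 201 and 56.4 CPM in netrin-1 neo1 MUT. All 8 embryonic stem cell markers examined were expressed, with a summed level of 3178 to 4278 CPM, and 7 fibroblast markers together reached 4.38 to 18.0 CPM. The summed level of 11 primitive endoderm markers was 1161 to 2687 CPM in control, 298 to 743 CPM in netrin-1 WT, 703 to 2050 CPM in netrin-1 unc5B MUT and 292 to 594 CPM in netrin-1 neo1 MUT. None of these 11 was at 0 in every library of a group. Their part in the differences between groups given below was not tested.

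Libraries that share a number deviated together from their group means. The correlation across genes was 0.58 to 0.75 among libraries numbered 1, 0.64 to 0.76 among those numbered 2 and 0.81 to 0.88 among those numbered 3. The numbers 1 and 2 also went together (0.49 to 0.76), and number 3 went against both (-0.83 to -0.60). Deviations of 3 libraries from their own mean cancel out, so a number 3 that stands apart gives both of these patterns by itself. Whether libraries numbered 1 or 2 are matched across groups cannot be read from these correlations. Group differences were therefore tested without the number and, in what is called the paired fit, with the number as a block. Fold changes below are from the paired fit unless another fit is named, with the standard error (SE) of the fit, and each adjusted p is from edgeR with Benjamini-Hochberg adjustment over all genes tested. The threshold was an adjusted p of 0.05. Where groups are said below not to overlap, the share of all genes that split so was not counted.

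Promoters of these genes often held the HIF core motif. A window from 250 bases before to 50 bases after the start was on file in RefSeq (GRCm38.p6) for 31 of the 32 symbols, as 44 windows. Ndrg1 had none. ACGTG or GCGTG, on either strand, was present in 35 of the 44 windows (79.5%), against 43.8% of 32851 promoters of all genes. ACGTG alone was in 54.5%, against 19.6%. The windows were also richer in G and C, with a median of 62.8% against 52.7%, and both motifs are rich in these bases. Part of the genes were chosen as known HIF targets, so the choice itself bears on these shares. Some windows of Eno1 and of Aldoa overlap and count the same matches again. At least 1 window with a motif was found for 28 of the 31 genes. 5 promoters are shown in full, 5′ to 3′ on the gene's strand, in lower case with each motif match in capitals. Eno3, Ldhb and P4ha2 were called in a group comparison below, as was Ndrg1, which has no window to show. Bnip3 and Pgk1 were called by edgeR in no group comparison over all libraries. A CACGTG reads as a match on both strands, which share the same central letters. A match is only a match of letters.

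Bnip3 (chr7:138909457-138909756, minus strand, 5 matches): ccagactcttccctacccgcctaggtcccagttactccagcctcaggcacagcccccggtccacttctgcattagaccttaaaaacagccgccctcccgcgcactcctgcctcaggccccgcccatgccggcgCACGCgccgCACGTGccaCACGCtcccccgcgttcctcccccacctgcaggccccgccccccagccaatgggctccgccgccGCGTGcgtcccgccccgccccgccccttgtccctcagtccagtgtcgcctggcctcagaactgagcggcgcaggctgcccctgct
Pgk1 (chrX:106186850-106187149, plus strand, 2 matches): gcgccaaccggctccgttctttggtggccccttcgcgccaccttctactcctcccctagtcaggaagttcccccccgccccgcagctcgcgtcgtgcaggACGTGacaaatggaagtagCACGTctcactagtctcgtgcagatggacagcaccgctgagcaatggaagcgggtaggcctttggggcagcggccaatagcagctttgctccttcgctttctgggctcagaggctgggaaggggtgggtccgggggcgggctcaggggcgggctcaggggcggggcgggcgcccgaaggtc
P4ha2 (chr11:54100674-54100973, plus strand, 4 matches): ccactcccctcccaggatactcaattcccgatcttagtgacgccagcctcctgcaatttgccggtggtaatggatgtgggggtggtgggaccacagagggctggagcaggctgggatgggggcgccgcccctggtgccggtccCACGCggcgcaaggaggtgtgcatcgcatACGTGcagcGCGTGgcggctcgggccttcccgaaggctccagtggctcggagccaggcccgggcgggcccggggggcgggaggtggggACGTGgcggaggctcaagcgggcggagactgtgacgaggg
Eno3 (chr11:70656926-70657225, plus strand, 1 match): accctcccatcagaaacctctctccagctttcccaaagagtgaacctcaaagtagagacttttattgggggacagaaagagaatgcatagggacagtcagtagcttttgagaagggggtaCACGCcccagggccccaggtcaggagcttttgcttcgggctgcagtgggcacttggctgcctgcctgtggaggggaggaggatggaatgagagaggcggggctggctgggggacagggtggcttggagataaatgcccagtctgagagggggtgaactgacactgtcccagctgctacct
Ldhb (chr6:142507908-142508207, minus strand, 1 match): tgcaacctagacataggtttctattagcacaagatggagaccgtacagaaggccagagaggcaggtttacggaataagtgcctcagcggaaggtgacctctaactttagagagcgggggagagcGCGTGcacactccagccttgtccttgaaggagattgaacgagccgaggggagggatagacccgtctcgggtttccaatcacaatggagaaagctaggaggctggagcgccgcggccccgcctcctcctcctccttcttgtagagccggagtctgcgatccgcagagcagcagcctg

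Bnip3 and P4ha2, whose products act in mitophagy and in collagen hydroxylation, held the most matches of the 5. Eno3 and Ldhb, the genes with the firmest group differences below, held 1 match each.

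Compared per kilobase of exon, the levels spanned a wide range and were highest for genes of the lower part of glycolysis and for aldolase. Gapdh, which oxidises glyceraldehyde-3-phosphate, had the highest mean level, 813 CPM per kb, with 511 to 1310 over the 12 libraries. Next came Pkm (525 CPM per kb), the pyruvate kinase gene, Pgam1 (479), the phosphoglycerate mutase gene, Aldoa (449), the main aldolase gene, Pgk1 (346), which encodes phosphoglycerate kinase, and Eno1 (220), the ubiquitous enolase gene. The ranges of Pkm (402 to 638), Pgam1 (200 to 642), Aldoa (269 to 615) and Pgk1 (57.1 to 598) overlapped. Each also overlapped the range of Gapdh, so the order of these genes, Gapdh included, does not exceed the spread. Ldha was at 194 CPM per kb and its sister gene Ldhb, which encodes the heart-type subunit of lactate dehydrogenase, at 68.5. Among isoforms of a step, Hk2 (56.0 CPM per kb) was above Hk1 (11.4), with ranges of 45.2 to 74.9 and 7.61 to 17.8 that did not overlap. Pfkl (49.0), the liver-type phosphofructokinase, was above Pfkp (26.3) and Pfkm (21.9), but its range of 27.9 to 71.8 overlapped both. Aldoc (10.7), Eno3 (18.3) and Eno2 (0.66), the isoforms known from brain and muscle, were far below Aldoa and Eno1. Aldoa's other ID stood at 1.42 CPM per kb. The HIF targets ran from 56.5 CPM per kb for Bnip3 to 3.68 for Ndrg1, and Hif1a itself was at 18.5, with 10.2 to 24.8 over the libraries.

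**Figure D1:**
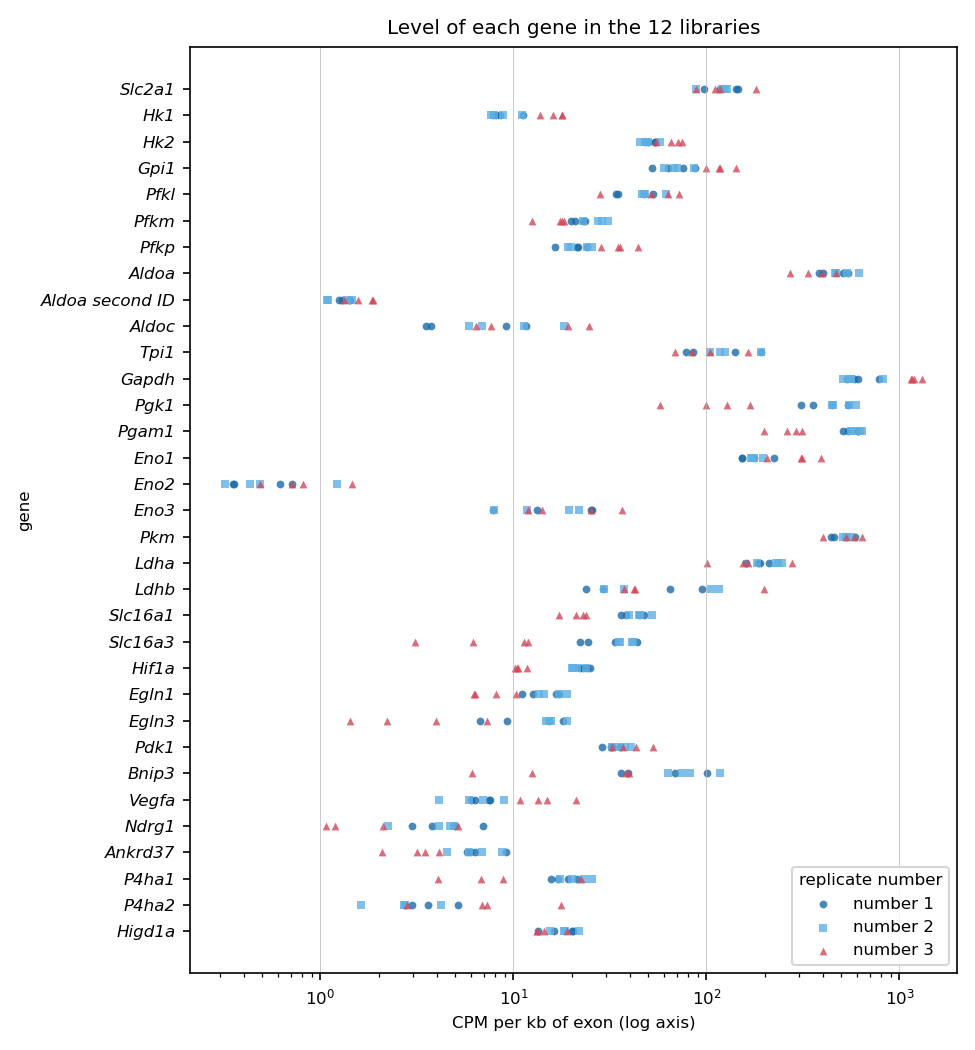
Each point is the level of a gene in a library, in CPM per kb of exon on a log axis, for the 33 IDs in 12 libraries, coloured by replicate number. Gapdh has the highest mean, 813 CPM per kb, and Eno2 the lowest, 0.66. For Pgk1, Slc16a3 and Hif1a the 4 libraries numbered 3 lie below the other 8.

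The best expressed gene of each role is given in every library, in CPM, with the libraries in the order 1, 2 and 3. Slc2a1, the glucose transporter GLUT1, was at 410, 438 and 388 in control, 509, 449 and 310 in netrin-1 WT, 340, 424 and 413 in netrin-1 unc5B MUT, and 499, 308 and 635 in netrin-1 neo1 MUT. Hk2, the hexokinase that traps glucose in the cell, was at 323, 344 and 423 in control, 324, 297 and 328 in netrin-1 WT, 285, 285 and 447 in netrin-1 unc5B MUT, and 296, 270 and 391 in netrin-1 neo1 MUT. For both genes the 4 groups overlapped. Gpi1, the phosphoglucose isomerase, was at 338, 455 and 753 in control, 486, 553 and 640 in netrin-1 WT, 407, 440 and 761 in netrin-1 unc5B MUT, and 565, 387 and 918 in netrin-1 neo1 MUT, so library 3 was the highest in every group. Pfkl was at 232, 318 and 479 in control, 353, 414 and 186 in netrin-1 WT, 226, 322 and 345 in netrin-1 unc5B MUT, and 317, 310 and 424 in netrin-1 neo1 MUT. Netrin-1 WT replicate 3 held the lowest Pfkl value of all, although library 3 was the highest in the other 3 groups.

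Aldoa was at 1172, 1360 and 1361 CPM in control, 1584, 1790 and 784 in netrin-1 WT, 1112, 1349 and 974 in netrin-1 unc5B MUT, and 1489, 1564 and 1152 in netrin-1 neo1 MUT. Its highest and its lowest value both came from the netrin-1 WT group. Gapdh was at 2405, 2300 and 5416 CPM in control, 3255, 3377 and 4741 in netrin-1 WT, 2200, 2113 and 4774 in netrin-1 unc5B MUT, and 2521, 2313 and 4926 in netrin-1 neo1 MUT. All 4 libraries numbered 3 were above the other 8. Pgam1 showed the opposite order, with 1072, 1143 and 621 CPM in control, 1208, 1273 and 396 in netrin-1 WT, 1010, 1112 and 520 in netrin-1 unc5B MUT, and 1210, 1243 and 579 in netrin-1 neo1 MUT. Pkm was at 2296, 2660 and 3192 CPM in control, 2646, 2806 and 2011 in netrin-1 WT, 2208, 2552 and 2635 in netrin-1 unc5B MUT, and 2941, 2651 and 2905 in netrin-1 neo1 MUT, and all groups overlapped except netrin-1 neo1 MUT, which lay above netrin-1 unc5B MUT. Ldha, the lactate dehydrogenase subunit that favours lactate formation, was at 608, 813 and 921 CPM in control, 696, 757 and 333 in netrin-1 WT, 532, 779 and 546 in netrin-1 unc5B MUT, and 626, 602 and 509 in netrin-1 neo1 MUT. Its lowest value was again that of netrin-1 WT replicate 3. Hif1a, the oxygen-regulated HIF subunit, was at 146, 126 and 69.0 CPM in control, 136, 119 and 59.9 in netrin-1 WT, 142, 119 and 61.9 in netrin-1 unc5B MUT, and 130, 140 and 61.4 in netrin-1 neo1 MUT. Its level separated number 3 from the other numbers and did not separate the groups.

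Netrin-1 WT against control asks what the wild-type ligand changes. In the paired fit, 1 of the 33 IDs was called, the muscle enolase Eno3, which was lower in netrin-1 WT. Over all genes tested, 3.5% were called, near the 3.03% that 1 of 33 makes. Without the number, 0 of 33 were called by edgeR, against 0.0997% of all genes. At an unadjusted p under the same threshold there were 2, against 1219 of the 21053 genes tested. DESeq2 called 0 of the 33 and 347 of all genes. The median log2 fold change of the 33 was 0.01, as for all genes tested (0.01). Eno3 (ENSMUSG00000060600, chromosome 11, 70657202 to 70662513, plus strand) was at 43.7, 38.0 and 43.9 CPM in control and 23.0, 20.5 and 24.4 in netrin-1 WT. It was at 44.4, 33.6 and 63.3 CPM in netrin-1 unc5B MUT and 13.6, 13.7 and 20.8 in netrin-1 neo1 MUT. The control and netrin-1 unc5B MUT values lay above all those of netrin-1 WT and netrin-1 neo1 MUT. The difference between netrin-1 WT and control was -0.89 ± 0.16 (SE, log2, adjusted p = 0.0139), and -0.92, -0.89 and -0.85 within numbers 1, 2 and 3. Without the number the adjusted p was 0.391. The paired call was lost when control replicate 1 or 2 or netrin-1 WT replicate 1 or 2 was left out, with an adjusted p of at most 0.0832. The paired count was 4 (Gapdh, Eno2, Eno3 and Ldhb) without netrin-1 WT replicate 3, and 3 and 2 without netrin-1 neo1 MUT replicates 3 and 1. The same 3 fits called 1861, 728 and 611 of all genes, against 737 with every library.

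Ldhb (ENSMUSG00000030246, chromosome 6, 142490249 to 142507957, minus strand) was at 37.3, 46.3 and 59.0 CPM in control and 101, 166 and 66.2 in netrin-1 WT. It was at 45.6, 58.5 and 67.3 CPM in netrin-1 unc5B MUT and 148, 181 and 314 in netrin-1 neo1 MUT. All netrin-1 WT values exceeded the control values, but that of library 3 did so by little. The difference of 1.26 ± 0.31 missed the threshold, with an adjusted p of 0.051.

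The remaining genes shared a split by number. Within number 1 the netrin-1 WT library was above the control library for 27 of the 33 IDs, with a median log2 difference of 0.31. Within number 2 it was above for 25, with a median of 0.21. Within number 3 it was above for 3, with a median of -0.65. Of all genes tested, 51.3%, 48.2% and 49.6% were above the control. The 3 exceptions in number 3 were Aldoa's other ID, Eno2 and Ldhb. Netrin-1 WT replicate 3 held the lowest of the 12 values for 15 of the 33 IDs, against 14.6% of all genes tested, and netrin-1 WT replicate 2 the highest for 9, against 9.31%.

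**Figure D2:**
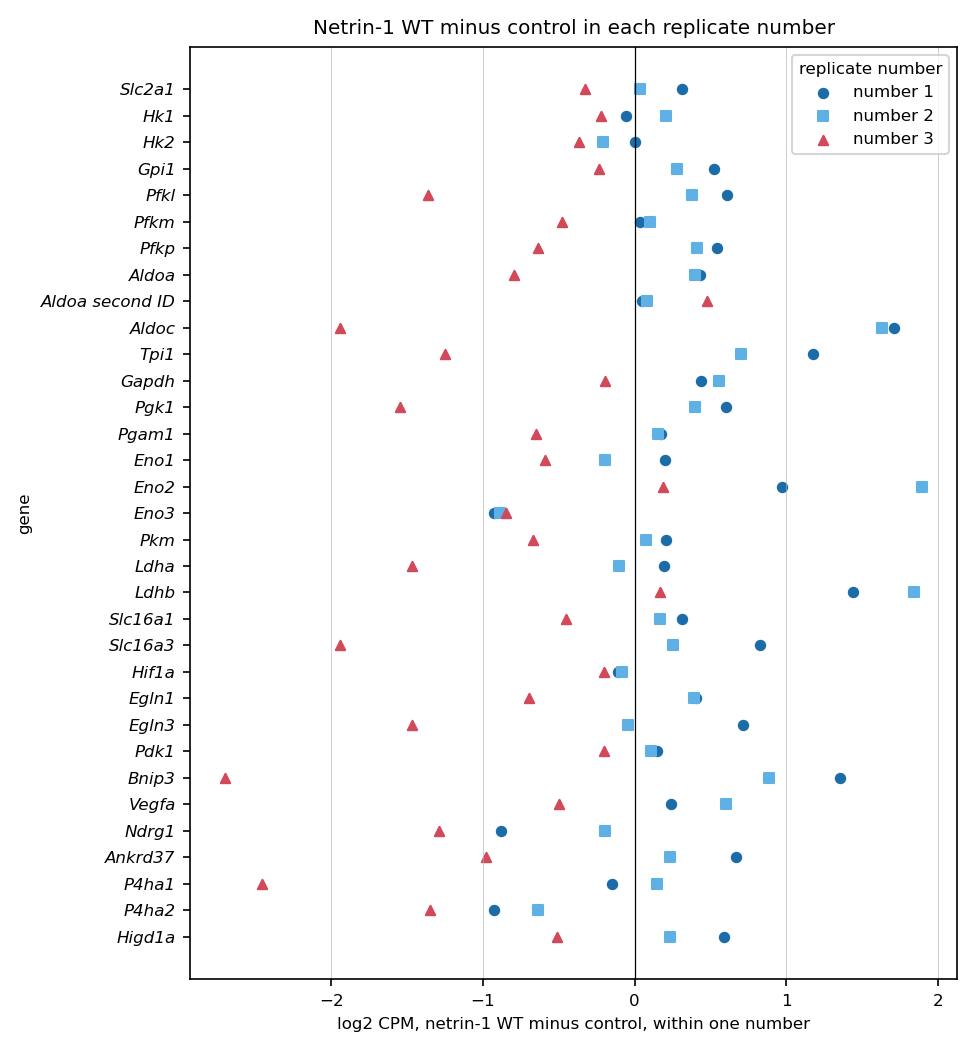
Each point is the difference in log2 CPM between the netrin-1 WT and the control library of the same replicate number, for each of the 33 IDs. Numbers 1 and 2 lie mostly above 0 (27 and 25 of 33), number 3 mostly below (3 of 33 above 0), and the 3 points of Eno3 lie together at -0.92 to -0.85.

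With the libraries numbered 3 left out, the paired fit on the other 8 called 13 of 33 IDs between netrin-1 WT and control, where 16.3% of all genes were called (7.25% higher, 9% lower). Higher were 11: Pfkl (0.49), Pfkp (0.48), Aldoa (0.42), Aldoc (1.67), Tpi1 (0.94), Gapdh (0.50), Pgk1 (0.50), Eno2 (1.49), Ldhb (1.65), the oxygen sensor Egln1 (0.40) and the mitophagy receptor Bnip3 (1.13), as log2 fold changes. Other genes of the same steps were not called, among them Pfkm (0.07) and Ldha (0.05). Lower were Eno3 (-0.91) and P4ha2 (-0.77), a subunit of the enzyme that hydroxylates collagen. For 9 of the 11 the number 3 libraries differed the other way, by between -2.70 for Bnip3 and -0.19 for Gapdh. Eno2 and Ldhb differed the same way there, by 0.19 and 0.17. Without the number in the fit, these 8 libraries gave 5 calls among the 33, against 4.22% of all genes. The choice to leave out number 3 in the paired fit was made after the data had been seen.

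Tpi1, Gapdh and Eno2 lie near each other on chromosome 6 and share their neighbours. The 39 other genes within 1 Mb had a median log2 fold change of 0.36 between netrin-1 WT and control, with 7 called higher and 0 lower. Over the 8 libraries numbered 1 and 2 their median was 0.30, with 13 higher and 3 lower, beside 0.94 for Tpi1, 0.50 for Gapdh and 1.49 for Eno2. Ldhb, elsewhere on the same chromosome, had 8 neighbours with a median of 0.02, and the 63 neighbours of Eno3 had a median of -0.03. Whether the stretch as a whole sets the values of Tpi1, Gapdh and Eno2 was not tested.

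Netrin-1 unc5B MUT against control gave no called gene among the 33. By edgeR, 0 were called in the paired fit, where 0.0285% of all genes were, and 0 without the number, where 0 of all genes were. At an unadjusted p under the threshold there were 2 and 0, against 990 and 238 of all genes. DESeq2 called 0 with and without the number, against 105 and 11 of all genes. The median log2 fold change was -0.13, against 0.02 for all genes tested, and the individual values ran from -0.84 (P4ha2) to 0.27 (Ldhb). Eno3 differed by 0.13. P4ha1, which encodes a further subunit of the collagen hydroxylase, was at 87.5, 95.2 and 91.8 CPM in control. It was lower in every library of netrin-1 unc5B MUT (64.2, 83.1 and 36.2 CPM) and of netrin-1 neo1 MUT (69.8, 71.9 and 27.8 CPM). P4ha1 was called against control in neither group, and the share of all genes that split so was not counted. With numbers 1 and 2 alone, again 0 of 33 were called, against 0.0754% of all genes.

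In the paired fit of all 12 libraries, netrin-1 neo1 MUT against control had the most calls of the 6 comparisons. It called 4 of 33, against 5.26% of all genes: Ldhb rose, and Eno3, P4ha2 and Ndrg1 fell. Without the number edgeR called 0, against 0.128% of all genes. At an unadjusted p under the threshold there were 4, against 1529 of all genes. DESeq2 called 2 of the 33 and 424 of all genes. The median log2 fold change of the 33 was 0.06, against 0.02. Ldhb, whose values in every library are given above, was higher in all 3 netrin-1 neo1 MUT libraries than in any control library, by 2.15 ± 0.31 (adjusted p = 0.00462). Eno3 was lower in all 3, by -1.42 ± 0.16 (adjusted p = 0.00132). Both calls held whichever of the 12 libraries was left out, and without the number the adjusted p was 0.0728 for Ldhb and 0.0812 for Eno3.

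P4ha2 (ENSMUSG00000018906, chromosome 11, 54100095 to 54131665, plus strand) was at 32.4, 26.2 and 110 CPM in control, 17.0, 16.9 and 43.1 in netrin-1 WT, 22.4, 17.1 and 45.7 in netrin-1 unc5B MUT, and 18.7, 10.2 and 17.5 in netrin-1 neo1 MUT. Control replicate 3 stood far above every other library, and the control and netrin-1 neo1 MUT groups did not overlap. The difference was -1.57 ± 0.28 (adjusted p = 0.0127), with 0.443 without the number. It was -1.06 (adjusted p = 0.014) without the libraries numbered 3, and the call was lost without netrin-1 neo1 MUT replicate 2 (adjusted p = 0.0527). Ndrg1 (ENSMUSG00000005125, chromosome 15, 66929318 to 66969640, minus strand), a gene known for its induction by low oxygen, was at 45.9, 31.1 and 33.9 CPM in control, 24.9, 27.2 and 13.9 in netrin-1 WT, 32.8, 32.6 and 7.88 in netrin-1 unc5B MUT, and 19.6, 14.7 and 7.08 in netrin-1 neo1 MUT. Control lay above both netrin-1 WT and netrin-1 neo1 MUT with no overlap, but Ndrg1 was not called in netrin-1 WT against control. For netrin-1 neo1 MUT the difference was -1.57 ± 0.32 (adjusted p = 0.02), with 0.532 without the number. The call was lost without control replicate 1 or without any of the 3 netrin-1 neo1 MUT libraries, with an adjusted p of at most 0.0943. Over numbers 1 and 2, the 2 other genes within 1 Mb of Ndrg1 had a median of -0.40, with 0 called, beside -1.17 for Ndrg1. Pfkm, elsewhere on chromosome 15, had 33 such neighbours with a median of -0.37, 0 called higher and 10 lower. The 22 neighbours of P4ha2 had a median of 0.18. Whether the region sets the value of Ndrg1 was not tested. The paired count of 4 was 2 without netrin-1 neo1 MUT replicate 2, where the calls over all genes went from 1108 to 459.

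**Figure D3:**
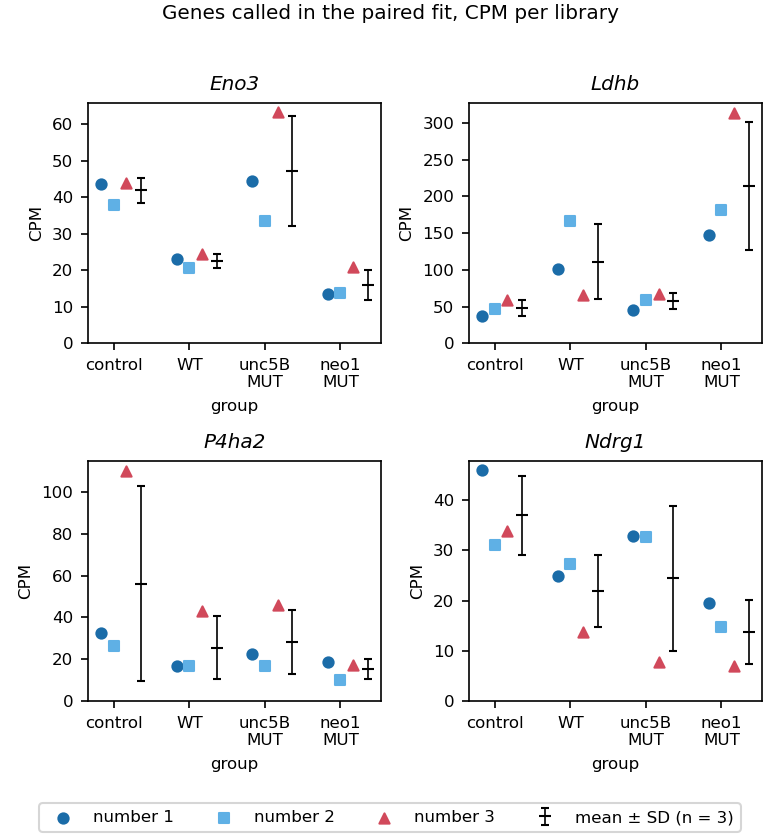
CPM of Eno3, Ldhb, P4ha2 and Ndrg1 in each library by group, coloured by replicate number, with the mean and SD of 3 libraries beside each group. Netrin-1 WT and netrin-1 neo1 MUT lie below control for Eno3 and above it for Ldhb, and control replicate 3 stands apart for P4ha2 at 110 CPM.

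In the 8 libraries numbered 1 and 2, netrin-1 neo1 MUT differed from control in 7 of the 33 IDs, where 10.5% of all genes were called. Higher were Hk1 (0.50), Aldoc (1.16), Ldhb (1.97) and the lactate transporter gene Slc16a1 (0.39), and lower were Eno3 (-1.58), Ndrg1 (-1.17) and P4ha2 (-1.06). Within number 3, Slc16a1 and Aldoc differed the other way, by -0.16 and -0.35. Netrin-1 WT, netrin-1 unc5B MUT and netrin-1 neo1 MUT were all set against the same 3 control libraries, so these comparisons are not independent.

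Between the netrin-1 forms, Eno3 and Ldhb were again the genes called. Netrin-1 unc5B MUT had more Eno3 than netrin-1 WT, by 1.02 ± 0.16 (adjusted p = 0.013), as the 1 call among 33 in the paired fit, where 1.97% of all genes were called. The call was lost without netrin-1 WT replicate 1 or 2 or netrin-1 unc5B MUT replicate 1 or 3, with an adjusted p of at most 0.0897. Without the number edgeR called 0 of 33 and 0 of all genes. At an unadjusted p under the threshold there were 3 of the 33, against 1059 of all genes. DESeq2 called 1 of the 33 and 182 of all genes. Leaving out netrin-1 WT replicate 3 raised the paired calls from 1 to 9, with Aldoa, Aldoc, Tpi1, Gapdh, Pgk1, Eno2, Ldhb and Bnip3 lower in netrin-1 unc5B MUT. The calls over all genes rose with them, from 414 to 1830. In numbers 1 and 2 alone 11 were called, against 13.4% of all genes: these 8 with Pfkl and Egln1 were lower, by between -1.52 for Aldoc and -0.47 for Aldoa, and Eno3 was higher, by 0.83.

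Netrin-1 neo1 MUT had less Eno3 than netrin-1 unc5B MUT, by -1.54 ± 0.16 (adjusted p = 0.00102), and more Ldhb, by 1.89 ± 0.31 (adjusted p = 0.0101). These were 2 calls of 33 in the paired fit, against 4.87% of all genes. The Eno3 call held without any 1 library, and the Ldhb call was lost without netrin-1 unc5B MUT replicate 1 or 2, with an adjusted p of at most 0.0764. Without the number edgeR called 0, against 0.133% of all genes. At an unadjusted p under the threshold there were 2, against 1443 of all genes. DESeq2 called 2 of the 33 and 376 of all genes. Egln3 was called too when netrin-1 WT replicate 3 was left out, where the calls over all genes went from 1026 to 2037. Within numbers 1 and 2, 7 were called, against 10% of all genes. Netrin-1 neo1 MUT and netrin-1 WT differed in 0 of 33 by edgeR, against 1.99% of all genes in the paired fit and 0.076% without the number. Gapdh was called in the paired fit without netrin-1 WT replicate 3, where 379 of all genes were called, against 419. With and without the number there were 7 and 1 at an unadjusted p under the threshold, against 3006 and 1015 of all genes. DESeq2 called 2 and 0, against 1135 and 225 of all genes. Over numbers 1 and 2, 2 were called, against 2.95%: Gapdh (-0.46) and Eno3 (-0.67) were lower in netrin-1 neo1 MUT.

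The authors' deposited table of comparisons lists 20347 genes. In the authors' deposited table, 0 of the genes described here were higher and 1 was lower in netrin-1 WT against control, where 4.42% of genes passed the same threshold. For netrin-1 neo1 MUT against control it lists 1 higher and 2 lower (5.52% of genes in the authors' deposited table), and for netrin-1 unc5B MUT against control none either way (0.0491%). By name, Eno3 passes in the authors' deposited table in 4 comparisons, Ldhb in 2 and P4ha2 in 1. Ndrg1 has an adjusted p of 0.071 there for netrin-1 neo1 MUT against control.

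More of these genes were called between replicate numbers than between groups. Number 3 differed from number 1 in 20 of the 33 IDs, 8 higher and 12 lower, and from number 2 in 22, 9 higher and 13 lower. Of all genes tested, 57% (29.1% higher, 27.9% lower) and 59.8% (30.2% higher, 29.7% lower) were called in these contrasts, so the share among the 33 was near the background. Number 2 differed from number 1 in 0 of 33 and 0% of all genes by edgeR. At an unadjusted p under the threshold there was 1 of the 33, against 2500 of all genes. DESeq2 called 0 of the 33 there and 303 of all genes. What the number stands for is not given in the labels.

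By role, lactate export, oxygen sensing and several HIF targets were lower in number 3. Slc16a3, which encodes the lactate exporter MCT4, was at 130, 186 and 63.5 CPM in control, 231, 222 and 16.5 in netrin-1 WT, 118, 219 and 32.9 in netrin-1 unc5B MUT, and 178, 190 and 60.6 in netrin-1 neo1 MUT. Library 3 was the lowest in each group, and number 3 differed from number 1 by -1.96 ± 0.37 (adjusted p = 0.00101). Egln3, a prolyl hydroxylase gene that HIF itself induces, was at 24.7, 41.9 and 10.6 CPM in control, 40.7, 40.6 and 3.78 in netrin-1 WT, 17.9, 39.3 and 5.92 in netrin-1 unc5B MUT, and 48.0, 50.7 and 19.4 in netrin-1 neo1 MUT. It differed by -1.81 ± 0.33 (adjusted p = 0.000841). Hif1a differed by -1.14 ± 0.09 (adjusted p = 1.88e-06), Egln1 by -0.89 and Slc16a1 by -0.97. Slc16a3 and Egln3 are named here for their values, not by the rule for named genes, as are Pgk1, P4ha1, Ankrd37 and Vegfa.

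Bnip3 was at 88.9, 144 and 90.0 CPM in control, 227, 266 and 13.8 in netrin-1 WT, 82.0, 169 and 28.1 in netrin-1 unc5B MUT, and 155, 185 and 86.5 in netrin-1 neo1 MUT. In netrin-1 WT its highest and lowest values over all libraries stood side by side. Number 3 differed from number 1 by -1.34 ± 0.52 (adjusted p = 0.0468), a call lost with DESeq2 and without netrin-1 WT replicate 1 or 2, any netrin-1 unc5B MUT library, or netrin-1 neo1 MUT replicate 1 or 2 (adjusted p at most 0.134). P4ha1 was at 79.0, 105 and 16.7 CPM in netrin-1 WT and 69.8, 71.9 and 27.8 in netrin-1 neo1 MUT, beside the control and netrin-1 unc5B MUT values given above. Control replicate 3, at 91.8 CPM, was the only library numbered 3 that was not low. Ankrd37, a small HIF target, was at 8.85, 9.02 and 6.37 CPM in control, 14.1, 10.6 and 3.20 in netrin-1 WT, 9.68, 13.4 and 4.89 in netrin-1 unc5B MUT, and 9.21, 6.93 and 5.35 in netrin-1 neo1 MUT, with a difference of -1.07 ± 0.27 (adjusted p = 0.00614).

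**Figure D4:**
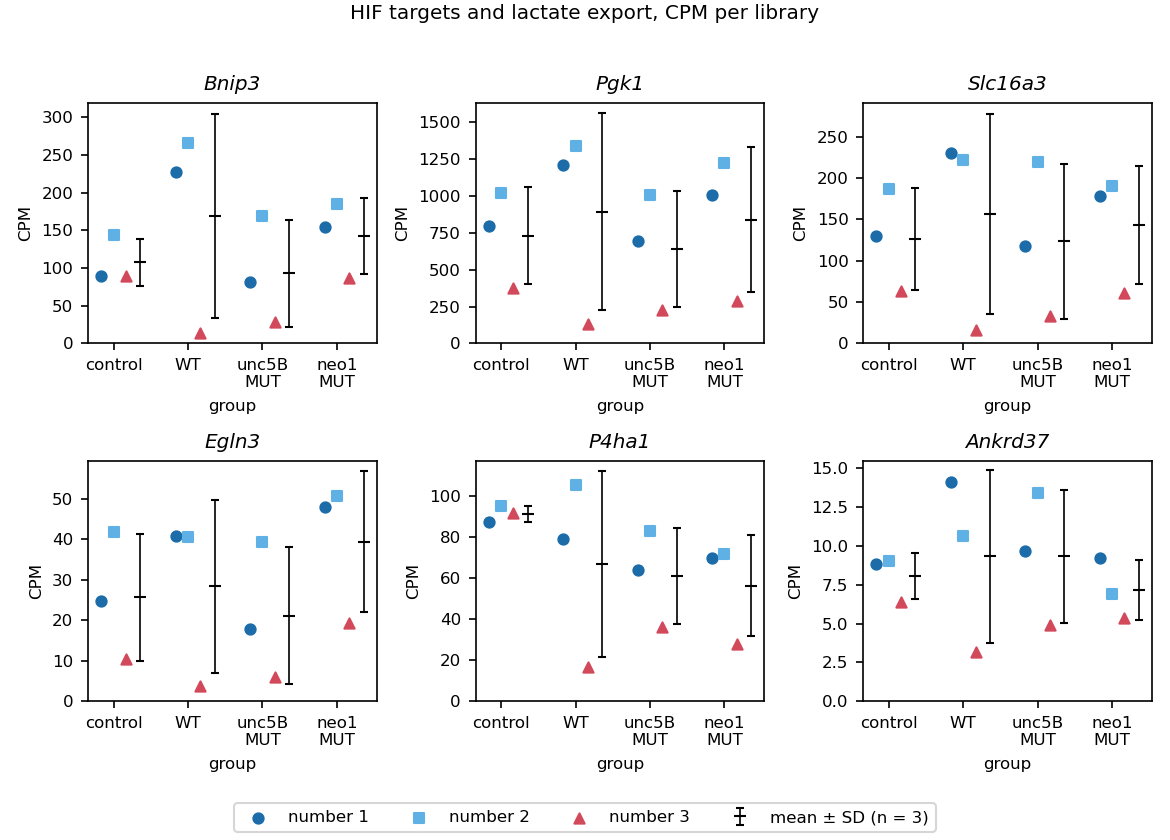
CPM of Bnip3, Pgk1, Slc16a3, Egln3, P4ha1 and Ankrd37 in each library by group, coloured by replicate number, with the mean and SD of 3 libraries. The library numbered 3 is the lowest of its group in every panel except Bnip3 and P4ha1 in control, and netrin-1 WT replicate 3 is the lowest of all 12.

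Other genes of the same pathways were higher in number 3, so the pathways did not move as a whole. Against number 1, Vegfa, the angiogenic growth factor gene, differed by 1.10 ± 0.21 (adjusted p = 0.00118) and P4ha2 by 1.03 ± 0.24 (adjusted p = 0.00381). Vegfa was at 27.1, 25.3 and 90.3 CPM in control, 32.1, 38.4 and 63.9 in netrin-1 WT, 25.9, 29.6 and 57.3 in netrin-1 unc5B MUT, and 32.2, 17.6 and 46.3 in netrin-1 neo1 MUT. Library 3 was the highest in each group, by the most in control. In the upper part of glycolysis, Hk1 differed by 0.89, Hk2 by 0.37, Gpi1 by 0.79 and Pfkp by 0.79, while Pfkm differed by -0.40. The Hk2 call was lost without netrin-1 unc5B MUT replicate 1 or 3, and the Pfkm call without control or netrin-1 WT replicate 1 or 3. In the lower part Gapdh differed by 0.96 and Eno1 by 0.78, and Pgk1 (-1.88) and Pgam1 (-1.09) were lower. Slc2a1, Pkm and Ldha were not called in either contrast with number 3.

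Counts were divided between several of these genes and copies similar to them in sequence in another ratio in number 3. Pgk1 was at 798, 1019 and 375 CPM in control, 1211, 1342 and 128 in netrin-1 WT, 695, 1005 and 223 in netrin-1 unc5B MUT, and 1003, 1226 and 288 in netrin-1 neo1 MUT. Copies matched to Pgk1 by sequence (4 in all) held 45.9% to 50.2% of the counts of gene and copies together in number 3, against 0% to 5.13% in numbers 1 and 2. For Pgam1 the share was 28.3% to 34.3%, against 0.0497% to 3.55%. Gapdh, with 326 copies, had 15.7% to 25.6% on them, against 2.68% to 5.41%, and the mitochondrial HIF target Higd1a 19.7% to 22.7%, against at most 1.07%. Eno1 went the other way, with 36.7% to 40.2% on copies in number 3 and 49.2% to 53.9% in numbers 1 and 2. The Eno1 copies include Eno1b, annotated as a protein-coding gene of its own. The values of these genes are uncertain to this extent.

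With the copies' counts added, the difference between number 3 and number 1 was -0.95 for Pgk1 (adjusted p = 0.00911) and -0.57 for Pgam1 (adjusted p = 0.00154), smaller than for the genes alone but still called. Gapdh then differed by 1.27, Eno1 by 0.45 (adjusted p = 0.0237) and Higd1a by 0.12 (adjusted p = 0.595). With copies taken by symbol instead, Eno1 differed by 0.17 (adjusted p = 0.344) and was no longer called. In the group comparisons, where the number enters as a block, adding the copies changed 1 call: Ldhb in netrin-1 WT against control then passed, with an adjusted p of 0.0493.

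**Figure D5:**
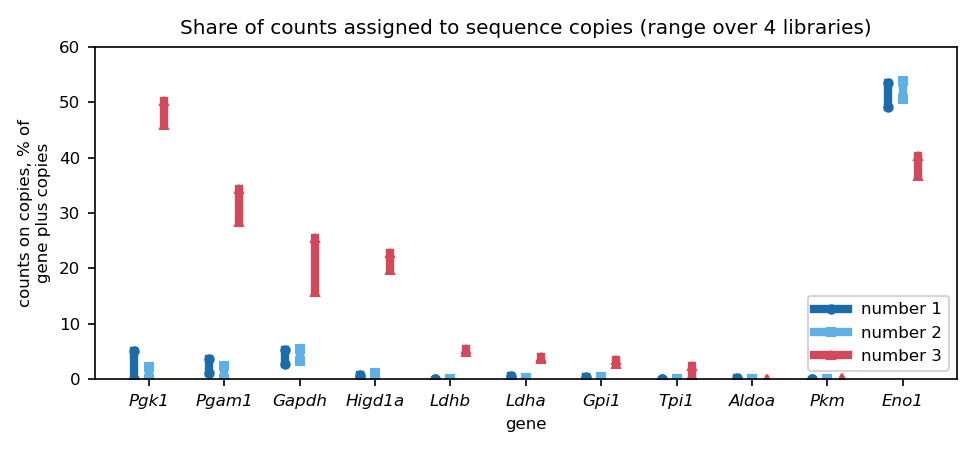
Share of counts on sequence copies, as a percentage of the gene and its copies together, for 11 genes; each bar spans the lowest to the highest of 4 libraries of a replicate number. Pgk1, Pgam1, Gapdh and Higd1a lie higher in number 3, up to 50.2% for Pgk1, and Eno1 lies lower.

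Lists of other genes of these pathways set the 33 beside their surroundings. Of 21 other glycolysis genes tested, netrin-1 WT against control called 1 higher and 4 lower in the paired fit, where 3.5% of all genes were called. Slc2a3, the glucose transporter GLUT3, rose by 0.87 ± 0.18 (adjusted p = 0.0291). It was at 610, 546 and 964 CPM in control and 1159, 1340 and 1225 in netrin-1 WT. Unlike for Tpi1, the genes within 1 Mb of Slc2a3 were not examined. The 4 that fell were Hkdc1 (-4.21), a hexokinase-like gene, Pgam2 (-2.20), the muscle phosphoglycerate mutase, and Fbp1 (-2.34) and Fbp2 (-2.44), the fructose bisphosphatases of gluconeogenesis. Fbp2 was at 28.2, 23.4 and 71.3 CPM in control and 4.43, 3.85 and 16.1 in netrin-1 WT, with no overlap. Pgam2 was also called without the number (adjusted p = 0.0375). In netrin-1 neo1 MUT against control, with 5.26% of all genes called, 0 were higher and 4 lower: Hkdc1 (-3.30), Pgam2 (-1.74), Fbp1 (-1.73) and Fbp2 (-2.52). Netrin-1 unc5B MUT against control called 0 in either direction. Netrin-1 unc5B MUT against netrin-1 WT called Hkdc1 (3.02), Pgam2 (1.36) and Fbp2 (2.10) higher and Slc2a3 (-1.24) lower, beside 1.97% of all genes. Netrin-1 neo1 MUT against netrin-1 unc5B MUT called Fbp2 lower (-2.18), beside 4.87%, and netrin-1 neo1 MUT against netrin-1 WT called 0. In netrin-1 WT and netrin-1 neo1 MUT, Hkdc1, Pgam2, Fbp1, Fbp2 and Eno3 were below control, as were the summed primitive endoderm markers given above. In netrin-1 unc5B MUT the genes parted. Hkdc1 was at 9.30, 5.44 and 7.61 CPM there, against 14.8, 10.2 and 24.8 in control. Pgam2 and Fbp1 were likewise below every control library, while Fbp2 and Eno3 overlapped control. None of these genes was called between netrin-1 unc5B MUT and control. The share of all genes below every control library was not counted. A link between these genes and the markers was not tested.

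Of 12 genes for pyruvate entry into mitochondria, 0 were called in any of the 6 group comparisons in the paired fit, with medians between -0.16 and 0.03. Of 7 pentose phosphate genes, 1 was called in netrin-1 neo1 MUT against control, where 5.26% of all genes were called. Rpe, the ribulose phosphate epimerase, fell there by 0.89 on the log2 scale (adjusted p = 0.00711). Of 15 components of the HIF pathway, Hif3a, a HIF-alpha family gene that HIF-1 can induce, was higher in netrin-1 WT than in control (0.81 ± 0.18, adjusted p = 0.0391) and than in netrin-1 unc5B MUT. It was also higher in netrin-1 neo1 MUT than in netrin-1 unc5B MUT (0.90, adjusted p = 0.0239). Cul2, a scaffold of the ligase that marks HIF-alpha, was lower in netrin-1 neo1 MUT than in control (-0.45, adjusted p = 0.0433). Each of these comparisons called 1 of the 15. Of all genes, 3.5% were called between netrin-1 WT and control, and 1.97% between netrin-1 unc5B MUT and netrin-1 WT. The share was 4.87% between netrin-1 neo1 MUT and netrin-1 unc5B MUT, and 5.26% between netrin-1 neo1 MUT and control. Of 37 other HIF targets tested, 1 was called in the group comparisons: Ak4, a mitochondrial adenylate kinase. It was lower in netrin-1 neo1 MUT than in netrin-1 unc5B MUT, where 4.87% of all genes were called. Between number 3 and number 1 the same list had 3 higher and 17 lower, with a median of -0.32 against -0.04 for all genes tested, of which 29.1% were higher and 27.9% lower. Between number 3 and number 2 it had 3 higher and 19 lower, with a median of -0.50 against -0.06 for all genes tested, of which 30.2% were higher and 29.7% lower. The other 4 lists had, between number 3 and number 1, 5 higher and 6 lower of the 15 HIF components (median -0.04), 5 and 3 of the 21 other glycolysis genes (-0.04), 0 and 4 of the 12 pyruvate entry genes (-0.09), and 2 and 1 of the 7 pentose phosphate genes (0.18).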

How the data were processed

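Gene expression was read from a table of estimated counts per Ensembl gene that the authors deposited for 12 libraries. Their estimation program was not given in the sources used here. The submitters' processing notes name FastQC 0.11.5, STAR 2.5.2b, Bowtie, Bowtie2, DESeq2, R 3.3.2 and the builds mm10, GRCm38.p5 and GRCh38, with no role for each. The log2-like normalised values that the authors also deposited entered no test. The authors' deposited comparison table gives log2 fold changes, adjusted p-values and a signed fold score, and the score was not used.

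Estimated counts were rounded and tested with edgeR 4.0.16 (R 4.3.3) by the quasi-likelihood F-test, after filterByExpr and TMM scaling, over all 4 groups with a shared spread. The p-values were adjusted by Benjamini-Hochberg over all 21053 genes tested, and the SE is the fold change over the root of F. CPM use TMM library sizes, and levels per kb use the union of exons of GENCODE M21 (GRCm38). The TMM factors were 0.774 to 0.835 for the libraries numbered 3 and 1.04 to 1.18 for the others. Small differences between number 3 and the other numbers, such as that of Hk2, depend on this scaling. Where estimated counts divide reads among genes of similar sequence, a gene's value depends on that division; copies were matched with blastn 2.17.0 (at least 80% identity over 200 bases) or by symbol.

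The design has no block. Libraries with the same number deviated together in every pair (correlation over 0.1). The fit with the number as a block was added for this reason and is called the paired fit. A number 3 that stands apart passes this check by itself. The check therefore cannot show that libraries with the other numbers are matched across groups. The pairing of those libraries in the paired fit is an assumption. Alternatives were DESeq2 1.42.0, RLE scaling, a filter of 1 count, copies added, the libraries numbered 3 left out and each library left out in turn. The genes and the lists were chosen with earlier results of these data known. Values are given in every library for genes called in a group comparison in either fit and for the best expressed gene of each role. Slc16a3, Egln3, Pgk1, P4ha1, Ankrd37 and Vegfa were added for their values.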

Additional observations from a re-analysis of the deposited data

How the results depend on the processing

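Counts are given in the order netrin-1 WT, netrin-1 unc5B MUT and netrin-1 neo1 MUT against control, netrin-1 unc5B MUT and netrin-1 neo1 MUT against netrin-1 WT, and netrin-1 neo1 MUT against netrin-1 unc5B MUT. Without the number, edgeR called 0 of the 33 IDs in all 6 and 21, 0, 27, 0, 16 and 28 of all genes. With the replicate number as a block it called 1, 0, 4, 1, 0 and 2 of the 33 and 737, 6, 1108, 414, 419 and 1026 of all genes. Over the 12 fits that each leave out 1 library, the counts without the block were 0 of the 33 throughout, and with it 0 to 4, 0, 2 to 4, 0 to 9, 0 to 1 and 1 to 3. Over all genes they were 1 to 37, 0, 4 to 35, 0 to 4, 8 to 16 and 6 to 33 without the block, and 211 to 1861, 2 to 11, 278 to 1908, 36 to 1830, 147 to 511 and 133 to 2037 with it.

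DESeq2 called 0, 0, 2, 1, 0 and 2 of the 33 and 347, 11, 424, 182, 225 and 376 of all genes, and with the replicate block 4, 0, 5, 3, 2 and 3 of the 33 and 1737, 105, 2140, 1483, 1135 and 2180 of all genes. With the filter of 1 count, all genes called were 13, 1, 19, 0, 11 and 13. RLE scaling with the block gave 1, 0, 4, 1, 0 and 2 of the 33 and 741, 6, 1112, 414, 411 and 1019 of all genes. Copies added by sequence with the block gave 2, 0, 4, 1, 0 and 2 of the 33 and 753, 6, 1113, 420, 423 and 1046 of all genes. Without the libraries numbered 3, the counts were 5, 0, 3, 2, 0 and 2 of the 33 and 895, 4, 586, 431, 193 and 493 of all genes, and with the block 13, 0, 7, 11, 2 and 7 of the 33 and 3450, 16, 2233, 2845, 627 and 2132 of all genes. In this last setting Pfkl (0.49) and Pfkp (0.48) were higher in netrin-1 WT than in control, the reverse of their sign in the fit of all libraries without the number. Within number 3 both genes were lower in netrin-1 WT than in control, at 186 against 479 CPM for Pfkl and 383 against 594 CPM for Pfkp. Why number 3 differed was not tested. Settings with the block beyond the block itself and the leave-one-out fits, and copies by sequence, were added after the data had been seen.

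Number 3 against numbers 1 and 2 called 19 to 23 and 21 to 23 of the 33 over the scaling, filter, tool and copy settings, and 17 to 25 and 20 to 27 with 1 library left out. All genes called were 11933 to 12664 and 12485 to 13289, and 10618 to 12149 and 11166 to 12693 with 1 library left out. Number 2 against number 1 called 0 of the 33 in every setting, and 303 of all genes with DESeq2 and 5 with the filter of 1 count. With 3 libraries a group, the unpaired fit passed few genes anywhere, so its counts of 0 do not show that values were equal. Genes with sequence copies carry the added uncertainty of how counts were divided.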

Other observations

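Within each number, the comparisons with netrin-1 WT that are not described above split in the same places. Netrin-1 unc5B MUT minus netrin-1 WT had a median log2 difference over the 33 IDs of -0.30, -0.19 and 0.39 in numbers 1, 2 and 3, with 6, 8 and 28 of 33 above 0, against 49.1%, 52.6% and 54.1% of all genes tested. Netrin-1 neo1 MUT minus netrin-1 WT had medians of -0.13, -0.41 and 0.55, with 13, 6 and 27 of 33 above 0, against 51.2%, 49.8% and 53.1%. All of these use the same netrin-1 WT libraries. Netrin-1 neo1 MUT minus control had medians of 0.34, -0.04 and -0.16, with 26, 15 and 10 of 33 above 0, against 51.8%, 47.9% and 50.9%. Control replicate 3 held the highest of the 12 values for 8 of the 33 IDs and netrin-1 neo1 MUT replicate 3 for 7, against 11.3% and 12.3% of all genes tested.

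The summed level of 7 markers of 2-cell-like cells was 2.96 to 10.6 CPM in control, 31.0 to 44.1 CPM in netrin-1 WT, 4.78 to 14.3 CPM in netrin-1 unc5B MUT and 6.14 to 53.7 CPM in netrin-1 neo1 MUT. Their part in the differences of the 33 IDs was not tested.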
